A study of Rattus norvegicus with 9 samples.

Results

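Chaperones fold new proteins and hold or refold damaged ones, and many of them are called heat shock proteins because heat and other protein stress raise their production through heat shock factors. This report describes 10 of their genes in the rat spinal cord after nerve injury: the small heat shock proteins Hspb1 and Hspb8, the HSP70 system (Hspa8, Hspa5, Hsph1 and Dnajb1), the cytosolic HSP90 pair (Hsp90aa1 and Hsp90ab1) and the mitochondrial chaperonin (Hspd1 and Hspe1). They were picked by gene name. Each name matched 1 of the 34890 loci in the table, and all 10 passed the filter on low values in every comparison.

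The samples came from 9 male wild-type Sprague Dawley rats, as 3 biological replicates in each of 3 groups. RNA was taken from the ipsilateral side of the L3-L6 cord, and the rats received gastric infusions for 21 days after surgery. JA rats were sham-operated and received normal saline. SNI rats had a spared nerve injury, a model of neuropathic pain that severs part of the sciatic nerve's branches, and also received saline. PLM rats had the same injury and received a solution of 20.65 mg/ml paeoniflorin, a glycoside of peony root, with liquiritin, a flavonoid glycoside of licorice. The study's methods give a single liquiritin concentration for this group, 3.98 mg/ml. The labels give it as 3.98 mg/ml for replicate 1, 3.99 for replicate 2 and 3.100 for replicate 3. None of these groups received the drugs without the injury, so PLM differs from JA by both the injury and the drugs.

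In the nervous system, Hspb1 (HSP27) is known as an injury-induced protein of sensory and motor neurons that supports their survival, and mutations of HSPB1 or HSPB8 cause inherited motor neuropathies in people. HSP70 proteins bind unfolded stretches under the control of J-domain partners such as Dnajb1 and nucleotide exchange factors such as Hsph1. HSP90 proteins then mature many kinases and receptors.

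The values are TPM (transcript abundances), which are scaled for gene length and to the same total in each sample, so that levels can be compared between genes. Read depth cannot be recovered from TPM, so the counting error behind each value is unknown. The samples also differed in features that touch every gene. The 13 mitochondrial protein genes took 25.3% to 32.8% of TPM in JA, 23.7% to 26.1% in SNI and 31.3% to 32.8% in PLM. The median log2 fold change over all loci tested was -0.21 for PLM versus SNI, 0.12 for SNI versus JA and -0.10 for PLM versus JA. Differences are therefore given both as deposited and after the median of each sample was set equal (median-centred). Markers of oligodendrocytes, astrocytes and neurons were present in every sample, as was the lumbar gene Hoxc10 at 31.0 to 46.9 TPM. The summed Schwann cell markers, which come from nerve roots, ran from 121 to 7577 TPM in JA, from 549.6 to 4365 in SNI and from 265 to 3212 in PLM, and JA replicate 3 had the most.

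Heat shock factors bind repeats of GAA and its reverse TTC, and the promoters of the members were searched for these letters in the 250 bases before the start of the gene. RefSeq (GRCr8) had a promoter for 9 members, and Hsp90aa1 is named only. The pair GAANNTTC, in which N is any base and which reads alike on both strands, lay in 7 of the 9 promoters and in 7.23% of all 33469 promoters. The triple GAANNTTCNNGAA, read on either strand and containing that pair, lay in the promoters of Hspa8, Hsph1, Hspd1 and Hspe1 and in 0.663% of all promoters. Hspa5 had neither, and held instead the endoplasmic reticulum stress element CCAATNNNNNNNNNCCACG, found in 0.0657% of all promoters on either strand. Hsp90ab1 had none of these. The stretches below show what the members hold in common or apart, each read 5′ to 3′ along its gene with the matching letters in capitals:
Hspe1, chr9:64084256-64084285 (+), match from 65 to 48 bases before the start: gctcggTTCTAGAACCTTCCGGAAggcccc
Hspa8, chr8:50080451-50080480 (+), match from 55 to 43 bases before the start: cggaacccTTCTGGAAGGTTCtaagacagg
Hsph1, chr12:10427324-10427353 (+), match from 36 to 24 bases before the start: gccgcagaTTCTGGAAAGTTCtcctcagta
Hspb8, chr12:45837274-45837303 (+), match from 23 to 16 bases before the start: agaagccaggaGAAGTTTCtaggcgcgtga
Hspb1, chr12:26432392-26432421 (-), match from 109 to 102 bases before the start: agatgggggcaGAACCTTCctggccctgcc
Dnajb1, chr19:41431142-41431171 (-), match from 11 to 4 bases before the start: cgacgcatcgggaggggcgGAAGGTTCtgg
Hspa5, chr3:38452968-38452997 (+), match from 43 to 25 bases before the start: gttcaCCAATCGGAGGCCTCCACGacgggg
The Hspe1 stretch holds 4 alternating units in 18 bases. Hspd1 and Hspe1 lie head to head, and the same 18 bases lie 242 to 225 bases before the start of Hspd1. Hspa8 has another triple from 213 to 201 bases before its start, and Hspb1 another pair from 129 to 122. A match of letters is a description of the sequence and was not tested for binding.

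Hsp90ab1, the constitutive cytosolic HSP90, was the most abundant member at a mean of 779 TPM over the 9 samples, above 99.1% of the 15503 loci that averaged 1 TPM or more. Hspe1, the lid of the mitochondrial chaperonin, followed at 443.8 TPM and Hspa8, the constitutive cytosolic HSP70 (HSC70), at 227 TPM. The order Hsp90ab1, Hspe1, Hspa8, Hspa5 was the same in JA, SNI and PLM, and the sample ranges of neighbours in this order did not overlap in any group, although in JA the lowest Hspa8 value (192.0 TPM) was next to the highest Hspa5 value (191.8 TPM). Hspa5 and Hsp90aa1, the stress-inducible HSP90, overlapped in every group. Hspb1, Hspd1 (HSP60, the barrel of the chaperonin) and Hsph1 (HSP110) came next. Dnajb1 (HSP40) and Hspb8 (HSP22) were lowest, at means of 33.5 and 28.0 TPM.

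**Figure D1:**
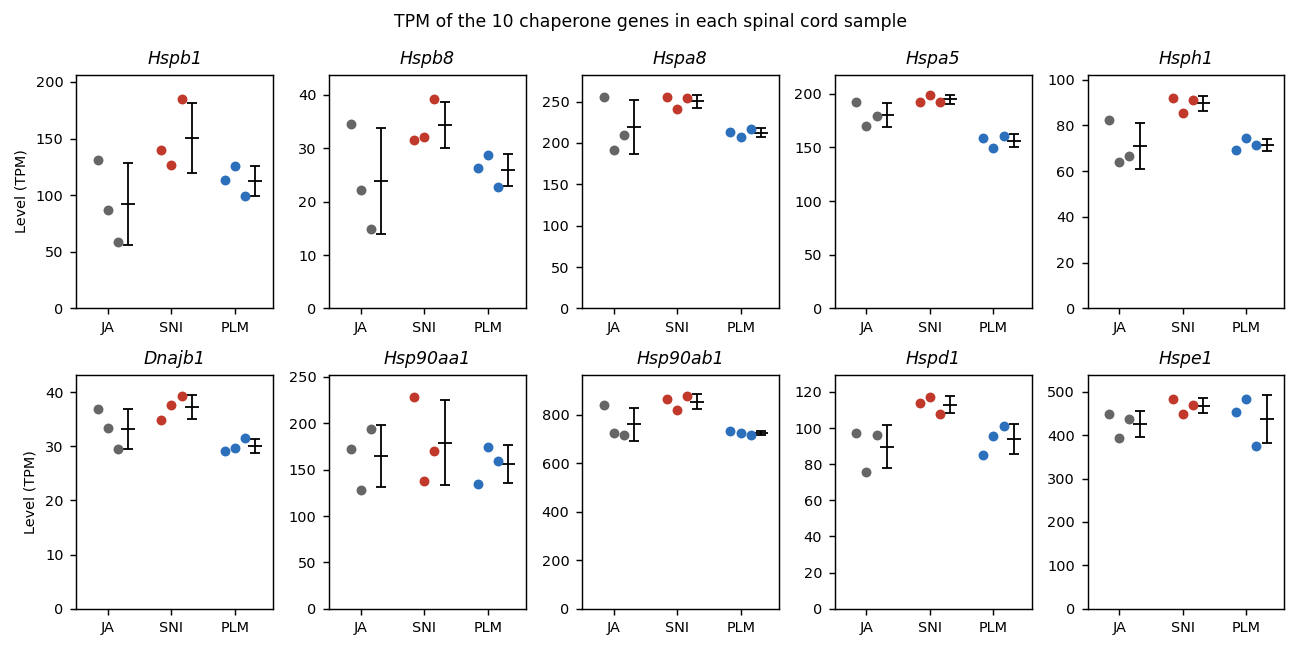
TPM (linear axes from 0) of each of the 10 genes in the 9 samples, with 1 point per sample and, beside each group, the mean ± SD of 3 samples. In 8 of the 10 genes, all but Hsp90aa1 and Hspe1, every PLM sample lies below every SNI sample, beside 41.9% of all loci.

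The question put by PLM versus SNI is how the drugs changed the injured cord. As deposited, all 10 members had a lower mean in PLM, with log2 fold changes from -0.40 for Hspb1 to -0.10 for Hspe1 and a median of -0.28, while the median of all loci was -0.21 and 85.0% of all loci lay below 0. Hspa8, Hspa5, Hsp90ab1, Hsph1 and Dnajb1 fell at an adjusted p under 0.05 (limma, Benjamini-Hochberg over 15474 loci), which is 5 of 10 members beside 13.6% of all loci called lower. In 8 of 10 members every PLM sample lay below every SNI sample, beside 41.9% of all loci. After median-centring the log2 fold changes ran from -0.15 to 0.14, and 0 of 10 members passed, whether at an adjusted p under 0.05 (0.814% of loci) or at an unadjusted p under 0.05 (16.9% of loci). In bulk tissue, fewer cells of a type and less RNA per cell cannot be told apart.

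In the HSP70 system, Hspa5 (BiP), the HSP70 of the endoplasmic reticulum, had the smallest p of the 10 members. It was at 192.4, 199.1 and 192.4 TPM in SNI and at 158.5, 149.0 and 161.0 TPM in PLM. Replicates of a group lay close together and a gap of more than 30 TPM separated the groups. The log2 fold change was -0.32 ± 0.05 (SE), with a limma adjusted p of 0.0227. After centring it was -0.07, with a 95% interval from -0.22 to 0.09.

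Hsph1, which exchanges the nucleotide of HSP70 proteins, was at 92.0, 85.7 and 91.3 TPM in SNI and 69.1, 74.3 and 71.3 TPM in PLM, and the groups did not overlap. Its log2 fold change was -0.32 ± 0.06 (SE), with a limma adjusted p of 0.0261. Dnajb1, the J-domain partner that hands substrates to HSP70, was at 34.9, 37.7 and 39.2 TPM in SNI and 29.1, 29.7 and 31.6 TPM in PLM. These groups were also apart, with a log2 fold change of -0.30 ± 0.07 (SE) and a limma adjusted p of 0.0418. Hspa8 was at 255, 241.5 and 255 TPM in SNI and 214, 207 and 217 TPM in PLM, so that each PLM sample was below each SNI sample. Its log2 fold change of -0.24 ± 0.05 (SE, limma adjusted p = 0.0364) was close to the median of all loci. Centring left 0.01, with a 95% interval from -0.14 to 0.16.

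Hsp90ab1 showed the same close agreement within groups, at 864, 819.7 and 877 TPM in SNI and 733, 723 and 715 TPM in PLM. The log2 fold change was -0.24 ± 0.05 (SE), with a limma adjusted p of 0.0344, and 0.01 after centring (95% interval -0.16 to 0.18). Its stress-inducible paralog Hsp90aa1 varied far more, from 138 to 229 TPM in SNI and from 135 to 175 TPM in PLM. These ranges overlapped, and a log2 fold change of -0.17 ± 0.19 (SE) did not pass (limma adjusted p = 0.525). It was 0.02 without SNI replicate 1, -0.34 without SNI replicate 2 and -0.07 without PLM replicate 1.

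In mitochondria, Hspd1 was at 114, 117 and 108 TPM in SNI and 84.8, 95.8 and 101 TPM in PLM. The groups did not overlap, but the log2 fold change of -0.27 ± 0.08 (SE) missed the threshold (limma adjusted p = 0.0680). Its partner Hspe1 overlapped between groups, at 484, 449.8 and 469.9 TPM in SNI and 454, 483 and 376 TPM in PLM. The Hspe1 log2 fold change of -0.10 was 0.002 without PLM replicate 3 and -0.18 without PLM replicate 2. After centring it was 0.14, and 0.28 without PLM replicate 3. Hspb1 and Hspb8 had log2 fold changes of -0.40 ± 0.16 and -0.39 ± 0.12 (SE), with limma adjusted p = 0.118 and 0.0704. Without SNI replicate 3, the highest sample of both, they were -0.25 and -0.30. The groups were apart in both genes, but for Hspb1 PLM replicate 2 (125.5 TPM) nearly met SNI replicate 2 (126.2 TPM).

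The 5 calls depended on scaling, and fell to 0 after median-centring, after quantile normalization and after TPM was rescaled without the 13 mitochondrial protein genes. They fell to 1 (Hspa5) with all 9 samples in the fit, to 3 without the filter on low values and to 0 with the replicate number as a block. With 1 sample fewer in the fit, 4 were kept without SNI replicate 2, 1 (Hspa5) without PLM replicate 3 and 0 without SNI replicate 1, SNI replicate 3, PLM replicate 1 or PLM replicate 2, while the log2 fold changes stayed near their full values (-0.28 to -0.34 for Hspa5, -0.22 to -0.27 for Hsp90ab1). No member reached the thresholds of the study's methods (a log2 fold change beyond 1 either way with an unadjusted p under 0.05), which 1.65% of loci did.

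**Figure D2:**
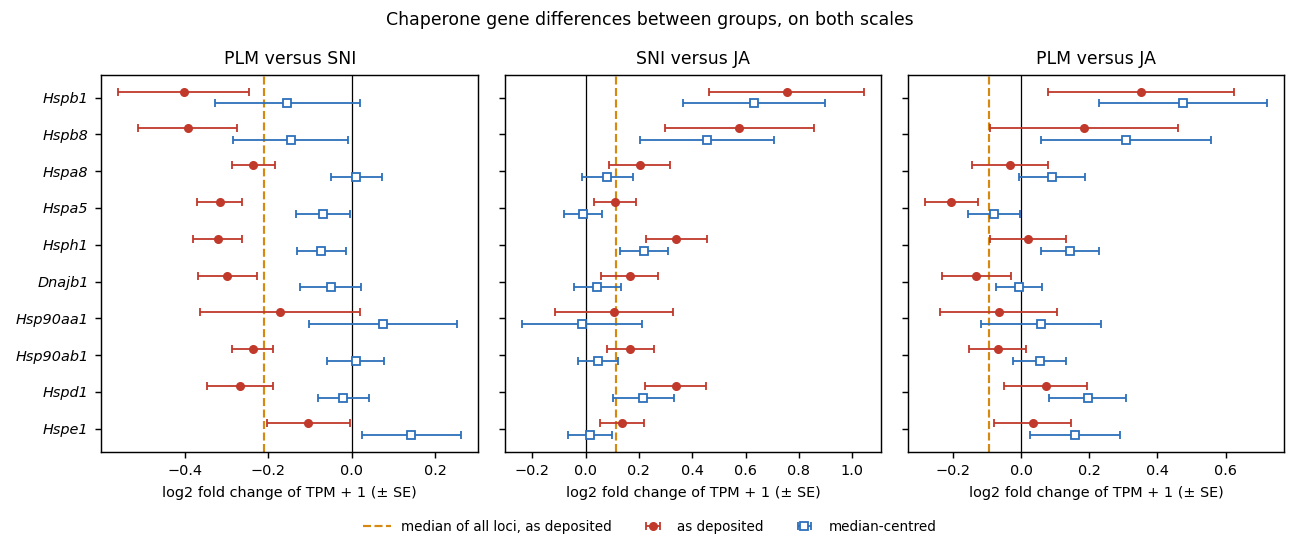
log2 fold change of TPM + 1 (± SE) of the 10 genes in the 3 comparisons, as deposited (filled circles) and median-centred (open squares), with a dashed line at the median of all loci as deposited. For PLM versus SNI the circles lie on either side of the line at -0.21, and the squares on either side of 0.

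SNI versus JA asks what the injury changed. All 10 members had a higher mean in SNI, while 23.6% of all loci lay below 0. The members' median log2 fold change was 0.19, where all loci had 0.12, and centring took the members' median to 0.06. After centring 2 of 10 members lay below 0, beside 51.4% of loci. At an adjusted p under 0.05, 0 of 10 members passed, as did 0 of 15557 loci (0%), and the centred values gave 0 members and 0% of loci as well. At an unadjusted p under 0.05 (limma), 3 members were higher in SNI, Hspb1, Hsph1 and Hspd1, where 6.11% of loci were, and after centring 1 was, Hsph1, where 1.7% of loci were. In 4 members, Hspa5, Hsph1, Hspd1 and Hspe1, every SNI sample exceeded every JA sample, beside 12.1% of loci.

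Hsph1 was at 82.4, 63.9 and 66.7 TPM in JA, and JA replicate 1 was nearest to the SNI samples. The log2 fold change was 0.34 ± 0.11 (SE, limma adjusted p = 0.614) as deposited and 0.22 centred (95% interval 0.01 to 0.43). Hspd1 was at 97.0, 75.9 and 95.9 TPM in JA, all below the 108 TPM of the lowest SNI sample. Its log2 fold change was 0.34 ± 0.11 (SE, limma adjusted p = 0.614), and 0.22 centred (95% interval -0.06 to 0.49). Without JA replicate 2 these were 0.22 and 0.11. JA replicate 1 was the highest JA sample in 9 of 10 members, all but Hsp90aa1, and it also had the lowest mitochondrial share of the JA samples (25.3%). For Hspa8 (255 TPM, against 192.0 and 209.9) and Hsp90ab1 (839 TPM, against 726 and 718) it lay inside the SNI range.

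Hspb1 and Hspb8 had the highest log2 fold changes of the 10 members for SNI versus JA with all 6 samples fitted, although neither passed the test. Hspb1 was at 131, 86.8 and 59.1 TPM in JA, at 140.3, 126 and 185 TPM in SNI and at 113, 126 and 99.0 TPM in PLM. Its log2 fold change for SNI versus JA, 0.75 ± 0.29 (SE, limma adjusted p = 0.614), was above that of 98.1% of loci, and it kept 0.63 after centring (95% interval -0.01 to 1.28). Hspb8, which acts with BAG3 in clearing misfolded proteins, was at 34.5, 22.2 and 14.9 TPM in JA, at 31.6, 32.2 and 39.3 TPM in SNI and at 26.3, 28.6 and 22.7 TPM in PLM. Its log2 fold change of 0.58 ± 0.28 (SE, limma adjusted p = 0.614) was above that of 96.7% of loci. In both genes JA replicate 1 lay inside the SNI range, and JA replicate 3 was lowest of all 9 samples. No member reached the study's thresholds (0.688% of loci). Without JA replicate 1 Hspb1 did, at a log2 fold change of 1.04, and without JA replicate 3 the values were 0.47 for Hspb1 and 0.29 for Hspb8.

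Hspb1 and Hspb8 followed each other from sample to sample. The ratio of Hspb8 to Hspb1 stayed between 0.213 and 0.263 while Hspb1 itself spanned 3.13-fold. On median-centred log2 values Pearson's r over the 9 samples was 0.97 (exact permutation p = 0.000135, 0.000810 adjusted over the 6 pairs of partner genes) and Spearman's rho was 0.87 (exact permutation p = 0.00451, adjusted 0.0271). Without JA replicates 2 and 3, the samples farthest from the median of Hspb8, r was 0.88, and for deviations from the group means it was 0.98. Of the other 5 pairs, Hsph1 and Hspa8 had r = 0.80 (exact permutation p = 0.0178, adjusted 0.0535), rho = 0.58 and r = 0.14 without JA replicates 2 and 3, so that the relation over all samples rested on those. For deviations from the group means its r was 0.87. The remaining 4 pairs had r from 0.15 to 0.29, and from 0.13 to 0.59 for deviations from the group means, where Hspa5 and Hspa8 had the 0.59. These correlations were computed after the values had been seen. The permutations exchanged samples across the groups, so group differences enter the p-values. The correlations of deviations from the group means were not tested.

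The summed TPM of 5 motor neuron markers (Chat, Slc5a7, Slc18a3, Isl1 and Mnx1) was set beside this pair. It was 35.2, 15.1 and 8.14 in JA, 46.5, 34.9 and 48.6 in SNI and 28.0, 32.5 and 24.4 in PLM. JA replicate 3 was lowest and SNI replicate 3 highest, as for Hspb1 and Hspb8. Slc18a3 made up most of the sum in every sample (28.9 TPM in SNI replicate 3). Each of the 5 markers was lowest in JA replicate 3. Slc18a3 and Slc5a7 were highest in SNI replicate 3, but Chat and Isl1 in SNI replicate 1 and Mnx1 in PLM replicate 1. No correlation with the sum was computed. None of the 5 markers was at 0 in a group, and 4 of 5 had enough TPM to be tested. In SNI versus JA 0 of these passed at an adjusted p under 0.05. At an unadjusted p under 0.05, 2 were higher both as deposited (6.11% of all loci) and centred (1.7% of all loci), and both met the study's thresholds (0.688% of loci in either direction as deposited). In PLM versus SNI 1 was lower at an adjusted p under 0.05 as deposited (13.6% of all loci) and 0 after centring. The summed markers of all neurons ran from 2287 to 4476 TPM in JA, from 4476 to 5611 in SNI and from 3843 to 4440 in PLM. JA replicate 3 also had the highest sum of Schwann cell markers and JA replicate 2 the lowest, so this sum did not follow Hspb1. How much of the Hspb1 and Hspb8 differences came with these markers was not tested.

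**Figure D3:**
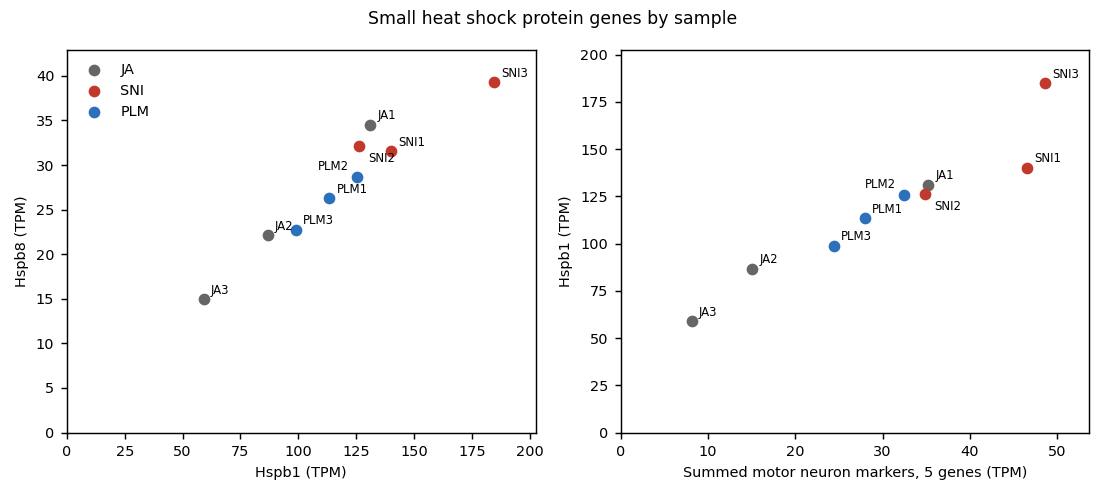
Each point is 1 of the 9 samples, with Hspb8 against Hspb1 (left, TPM) and Hspb1 against the summed TPM of the 5 motor neuron markers (right). JA replicates 2 and 3 lie at the low end of both plots and SNI replicate 3 at the high end, while JA replicate 1 lies among the SNI samples.

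PLM versus JA compares treated injured rats with sham-operated ones. Of the 10 members 5 lay below 0 and 5 above as deposited, beside 71.2% of all loci below 0. After centring 2 lay below 0, beside 43.7% of loci. The members' median log2 fold change was -0.01 as deposited and 0.12 centred. On either scale 0 of 10 passed at an adjusted p under 0.05 (0.0195% of loci as deposited and 0.013% centred, limma). At an unadjusted p under 0.05, 1 member, Hspa5, was lower as deposited (10.5% of loci were) and 0 were called after centring (9.98% of loci). The thresholds of the study's methods were met by 0 members and 0.938% of loci. Hspa5 was also the 1 member whose PLM samples all lay below the JA samples (15.7% of loci), which were at 192, 169.8 and 179 TPM. Its log2 fold change was -0.20 ± 0.08 (SE, limma adjusted p = 0.411), and -0.08 centred (95% interval -0.27 to 0.10). Hspb1 was at 0.35 ± 0.27 (SE, limma adjusted p = 0.647), at 0.64 without JA replicate 1 and at 0.07 without JA replicate 3. PLM versus JA shares its PLM samples with PLM versus SNI and its JA samples with SNI versus JA, so the comparisons are not independent of each other.

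The 10 members together accounted for 0.206% ± 0.0205 of TPM in JA (SD, n = 3 samples, here and for the other groups), for 0.237% ± 0.0106 in SNI and for 0.202% ± 0.0069 in PLM. Of the TPM outside the 13 mitochondrial protein genes they took 0.290% ± 0.0139, 0.314% ± 0.0088 and 0.297% ± 0.0092. The gap between SNI and PLM was thus smaller on the second base. One of the 3 PLM samples (replicate 2, 0.304%) then equalled the lowest SNI sample (replicate 2, 0.304%) to 3 digits.

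Ratios of partner genes within a sample do not depend on scaling, apart from the pseudocount of 1 used in their test. In 6 pairs and 3 comparisons, 18 exact permutation tests (two-sided) were made on log2 ratios, and 3 samples against 3 cannot go below p = 0.10. The smallest adjusted p was 0.30. Hspa5 relative to Hspa8 was 0.752, 0.884 and 0.854 in JA, 0.754, 0.824 and 0.755 in SNI and 0.742, 0.720 and 0.742 in PLM. All PLM samples lay below all samples of both other groups (exact p = 0.10 each, log2 difference -0.08 from SNI and -0.17 from JA), although JA replicate 1 and SNI replicates 1 and 3 were close to PLM. For PLM versus SNI the log2 fold changes were -0.32 for Hspa5 and -0.24 for Hspa8. Without SNI replicate 2 they were nearer to each other, at -0.30 and -0.26. The endoplasmic reticulum HSP70 was thus lowest relative to the cytosolic one in the 3 PLM samples. This did not pass after adjustment (exact permutation, adjusted p = 0.30).

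Hsph1 relative to Hspa8 was 0.323, 0.333 and 0.318 in JA and 0.360, 0.355 and 0.358 in SNI, without overlap (log2 difference 0.14, exact p = 0.10). PLM held 0.324, 0.359 and 0.329, with replicate 2 inside the SNI range and the others near JA. Hspe1 relative to Hspd1, the lid and barrel of 1 complex, was 4.62, 5.18 and 4.55 in JA and 4.25, 3.84 and 4.36 in SNI, again without overlap (log2 difference -0.20, exact p = 0.10). In PLM it spread from 3.72 to 5.35 across both. Hspb8 relative to Hspb1 was lower in PLM (0.232, 0.228 and 0.230) than in JA (0.263, 0.255 and 0.253), with a log2 difference of -0.17 and exact p = 0.10. SNI spread from 0.213 to 0.255 for that ratio, with SNI replicate 2 inside the JA range. With the pseudocount of 1 used in the test these groups were apart, at a log2 difference of -0.18 and exact p = 0.10. Hsp90aa1 relative to Hsp90ab1 ran from 0.169 to 0.270 and Dnajb1 relative to Hspa8 from 0.136 to 0.174, and each overlapped in all 3 comparisons.

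**Figure D4:**
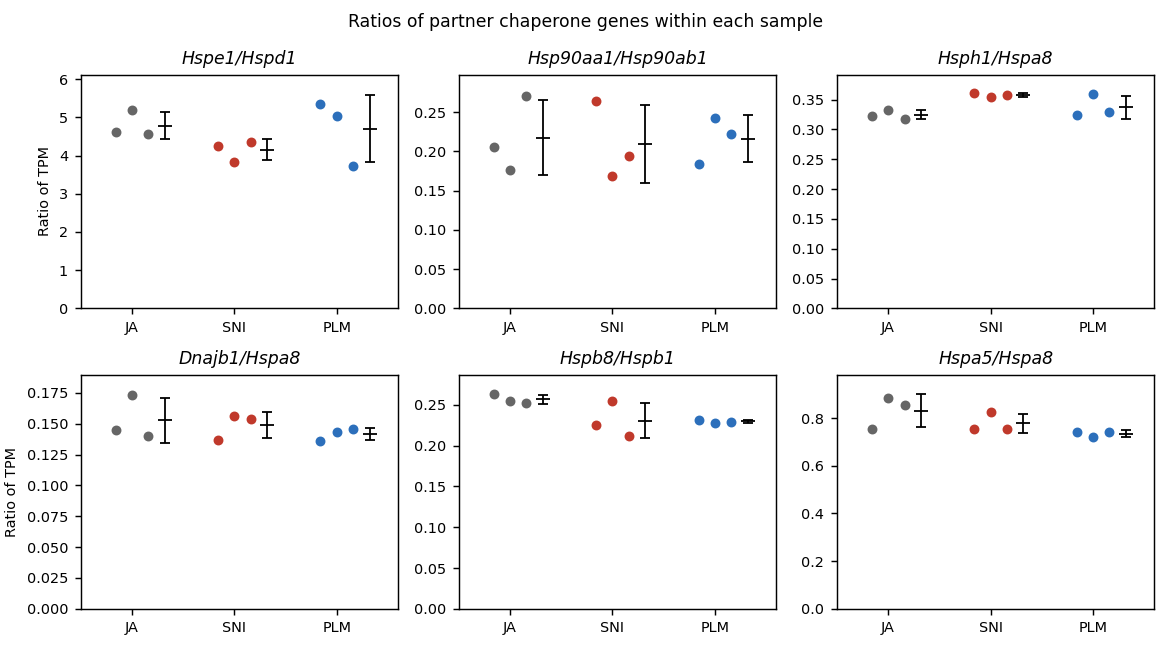
Ratio of TPM of the 6 pairs of partner genes in each sample (linear axes from 0), with the mean ± SD of 3 samples beside each group. The Hspa5/Hspa8 ratio is lowest in the 3 PLM samples, and the Hsph1/Hspa8 ratio is higher in the 3 SNI samples than in the 3 JA samples.

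The wider chaperone network was followed in 11 lists with 118 genes, of which 109 were tested. In PLM versus SNI 26 of 109 fell at an adjusted p under 0.05 (13.6% of all loci were called lower) and 0 rose (0.246% of loci), with a median log2 fold change of -0.20, close to that of all loci (-0.21). The folding factors of the endoplasmic reticulum, where Hspa5 works, had the most calls, with 8 of 16 lower, Calr and Canx among them, and a median of -0.27, or -0.03 centred. Calr (calreticulin), a lectin chaperone, was at 374, 396 and 401 TPM in SNI and 300.0, 292 and 301 TPM in PLM, with a log2 fold change of -0.39 ± 0.05 (SE, limma adjusted p = 0.0128). Among regulators of the unfolded protein response 1 of 11 fell, Xbp1, at -0.36 ± 0.07 (SE, limma adjusted p = 0.0261), while Atf4 was at -0.17 ± 0.07 (SE, limma adjusted p = 0.118). After centring, no gene of the 11 lists passed at an adjusted p under 0.05, and 6 of 109 were lower (6.89% of all loci) and 13 higher (10% of all loci) at an unadjusted p under 0.05.

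The counts of each list stand beside the same 13.6% of loci called lower. The list medians ran from -0.33 for other HSP70 genes to 0.06 for prefoldin. Of the HSP70 cochaperones 3 of 9 fell, with Bag4, a nucleotide exchange factor of HSP70, at 7.73, 7.16 and 6.25 TPM in SNI and 4.03, 4.52 and 4.54 TPM in PLM (log2 fold change -0.58 ± 0.10 SE, limma adjusted p = 0.0242). Of other HSP70 genes 3 of 8 fell, Hspa4, Hspa12a and Hspa14, and of other J-domain proteins 5 of 17, with Dnajb12 at -0.42 ± 0.06 (SE, limma adjusted p = 0.0177). Of mitochondrial chaperones and proteases 3 of 14 fell: Hspa9 (mortalin), the mitochondrial HSP70, the protease Lonp1 and Phb (prohibitin). Hspa9 was at 102, 99.6 and 91.6 TPM in SNI and 66.8, 73.0 and 78.0 TPM in PLM, and its log2 fold change was -0.43 ± 0.08 (SE, limma adjusted p = 0.0264). Of the cytosolic CCT chaperonin 2 of 8 fell, and of other small heat shock proteins 1 of 4, Hspb6, while Cryab (αB-crystallin), the most abundant of them, was at -0.07 ± 0.11 (SE, limma adjusted p = 0.679).

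HSP90 cochaperones (0 of 12), heat shock factors and their regulator Hsbp1 (0 of 4) and prefoldin (0 of 6), which passes nascent actin and tubulin to CCT, had no call, and 4, 1 and 0 of them were lower at an unadjusted p under 0.05, as were 35.8% of all loci. Prefoldin alone among the lists had a median above 0, at 0.06, and at 0.30 after centring, when 5 of its 6 genes were higher at an unadjusted p under 0.05, beside 10% of loci, and 0 at an adjusted one. Hsf1, the main heat shock factor, was at 11.6, 10.6 and 11.7 TPM in SNI and 8.61, 9.47 and 8.91 TPM in PLM, with a log2 fold change of -0.30 ± 0.08 (SE, limma adjusted p = 0.0507). Hspa1b, the classic heat-induced HSP70, was low in every sample and was named after its values were seen. It was at 2.72, 7.82 and 5.33 TPM in JA, 5.98, 7.90 and 5.04 in SNI and 12.5, 5.90 and 8.38 in PLM, so the groups overlapped, and its reads may be shared with the near-identical Hspa1a.

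In SNI versus JA 0 of the 109 network genes passed at an adjusted p under 0.05, and 17 were higher (6.11% of all loci) and 0 lower (0.99% of all loci) at an unadjusted p under 0.05 (limma). After centring 4 were higher (1.7% of all loci) and 1 lower (3.13% of all loci). Their median log2 fold change was 0.14 as deposited, where all loci had 0.12. Bag4 had the smallest p (0.61 ± 0.14 SE, limma adjusted p = 0.614), from 4.27, 4.98 and 3.58 TPM in JA, followed by Hspa9 (0.32 ± 0.08 SE, limma adjusted p = 0.614), which was at 81.2, 75.3 and 78.0 TPM in JA. Both were higher in each SNI sample than in each JA sample. In PLM versus JA 0 of 109 passed at an adjusted p under 0.05, with 9 lower (10.5% of all loci) and 0 higher (1.3% of all loci) at an unadjusted p under 0.05, 6 of them folding factors of the endoplasmic reticulum. After centring 4 were lower (4.72% of all loci) and 2 higher (5.26% of all loci), and 3 of the 16 folding factors of the endoplasmic reticulum were among the lower ones.

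Markers of other cell types also differed between PLM and SNI. All 10 of 10 astrocyte markers fell in PLM versus SNI at an adjusted p under 0.05 (limma), beside 13.6% of all loci, and 7 did after centring. Their summed level was 4110 to 6457 TPM in JA, 5421 to 6555 in SNI and 2993 to 3565 in PLM, with none at 0. Their median log2 fold change was -1.24, or -0.99 after centring, beside -0.28 and -0.03 for the members. Of the markers of meninges and fibroblasts 2 of 5 fell at an adjusted p under 0.05 (the same 13.6% of loci), and 0 after centring, with a median of -0.65, or -0.40 centred, and sums of 108 to 309 TPM in JA, 84.2 to 205 TPM in SNI and 54.3 to 116 TPM in PLM. Of 7 blood cell markers 0 passed at an adjusted p under 0.05 and 3 were higher at an unadjusted p under 0.05 (1.28% of all loci), and their sums were 4148 to 7302 TPM in SNI and 8008 to 11241 TPM in PLM, without overlap, and 5412 to 11916 TPM in JA, overlapping both. The part of these cell types in the member differences was not tested.

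**Figure D5:**
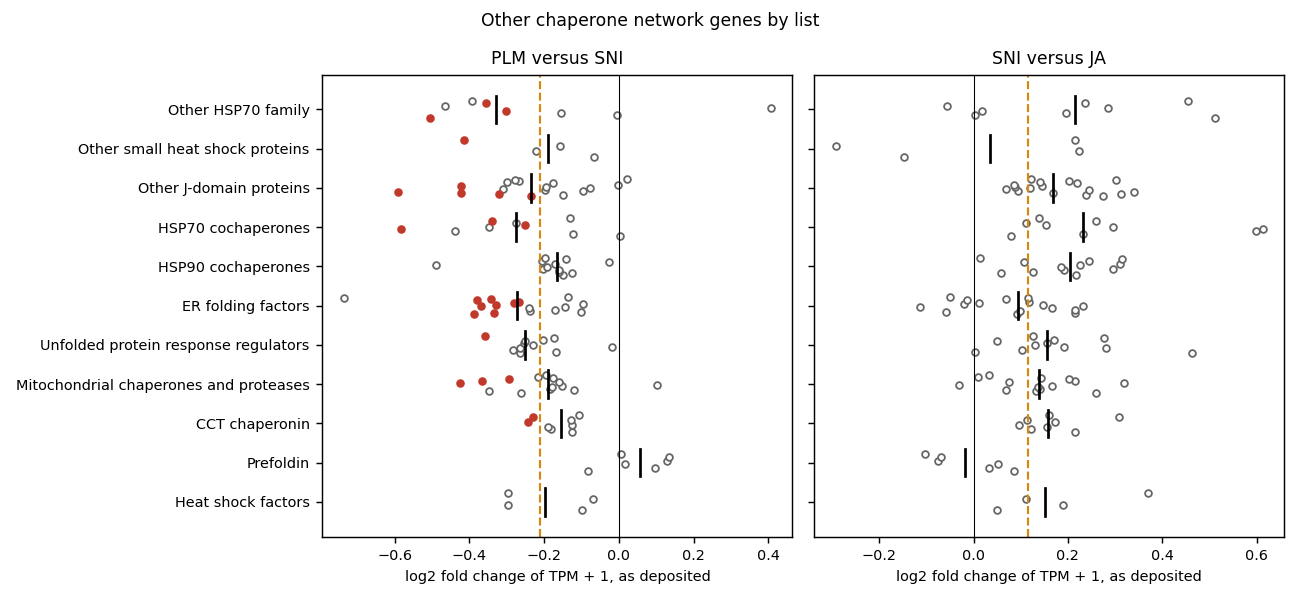
log2 fold change of TPM + 1, as deposited, of the 109 tested network genes by list, for PLM versus SNI and SNI versus JA. Filled points passed an adjusted p under 0.05, bars are list medians and the dashed line is the median of all loci. In PLM versus SNI the prefoldin median alone lies above 0, and in SNI versus JA no point is filled.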

How the data were processed

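The authors removed low-quality reads and adaptors (the submitters' processing notes name CASAVA and fastp 0.19.5), mapped with HISAT2, estimated expression with StringTie and deposited TPM values with 2 decimals. The notes name the human build GRCh38.p13, although the loci carry rat identifiers, so no coordinates of the table are given. For the members, log2(TPM + 1) was compared between pairs of groups with limma 3.58.1 in R 4.3.3 (variance trend, no covariate), keeping loci that averaged 1 TPM or more across the 6 samples, with Benjamini-Hochberg adjustment over all of them. The study's methods used DESeq2 for counts, which TPM do not allow. Fold changes on this scale understate low genes. Partner ratios were compared by exact permutation. The network genes named are the most abundant of a list or those with its smallest p in PLM versus SNI or SNI versus JA, apart from Hspa1b and genes behind a count of 5 or fewer, which were named after their values were seen. Cell type markers were summed per sample. Members, lists and tests were chosen with earlier results of these data known. The alternatives were 3 other scalings, another pseudocount and filters, all 9 samples in 1 fit, a replicate block, and fits without 1 sample each.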

Additional observations from a re-analysis of the deposited data

How the results depend on the processing

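For PLM versus SNI the 5 members at an adjusted p under 0.05 (limma) became 0 after median-centring, 0 after quantile normalization, 0 after TPM was rescaled without mitochondrial protein genes, 0 with the replicate number as a block, 3 (Hspa8, Hspa5 and Hsph1) without a filter and 1 (Hspa5) with all 9 samples in the fit, and from 0 to 4 when 1 sample was left out, where fewer samples were fitted. Loci called in either direction fell from 2148 to 126, 155, 287, 152, 1258 and 486 under those settings in that order, and to between 275 and 1494 with 1 sample left out. Hspa8 turned from -0.24 to 0.0114 and Hsp90ab1 from -0.24 to 0.0100 on median-centring. The pseudocount of 0.1 and the filter of 1 TPM in every sample kept the same 5 members. Members past the study's thresholds numbered 0 in all settings except SNI versus JA with 1 sample left out, which gave from 0 to 1. Samples of 1 number share no source in the labels, and their deviations correlated at -0.05 to 0.12 in the 3 comparisons. The block changed no call in SNI versus JA or PLM versus JA, and gave 0 median-centred members in PLM versus SNI, as without it. Of 630 recomputed log2 fold changes of single members, 51 turned sign between values that passed under neither setting, and none of these 51 was over 0.15 in size. Of 126 recomputed ratio differences 15 turned sign, in Hspe1/Hspd1, Hsp90aa1/Hsp90ab1, Dnajb1/Hspa8 and Hspb8/Hspb1. Depth is unknown, and 3 samples a group limit the precision. The cause of the changes was not tested.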
